A study of Homo sapiens with 30 samples.

Results

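Re-expression of wild-type FOXA1 in LNCaP cells with a FOXA1 knockdown was compared with the same knockdown alone. The genes described are all those with an RPKM of at least 1 in at least 3 of the 6 libraries of both groups, 12146 of the 26443 genes with values. RPKM, reads divided by gene length and by library total, is a level that can be set side by side between genes. Just inside this limit, the 454 genes that reached it in exactly 3 libraries had a median mean level of 1.05 RPKM, and just outside, the 315 genes that reached it in 2 libraries had 0.850 RPKM. Where the 3 libraries are those of 1 group, the limit itself set the direction of the gene. Named below, this holds for KRT16, KRT6B, PI3, WNT11, PIP, SAA1, SAA2, SERPINA3, EPAS1 and CDKN2B, which fell. It also holds for TTR, UCHL1 and RET, which rose, and may hold for others.

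LNCaP is a human prostate cancer line that responds to androgen and has a luminal character. The series holds 30 RNA sequencing libraries in 10 groups of 3, of which the pGIPZ experiment, named after the shRNA vector, has 4 groups. Cells were infected for 5 days with a control shRNA (pGIPZ control), with an shRNA against FOXA1 (shFoxA1), or with that shRNA and either HA-tagged wild-type FOXA1 (shFoxA1 + WT) or an HA-tagged FOXA1 in which a lysine was replaced by alanine (shFoxA1 + K295A). Per the protocol, arms without a re-expressed FOXA1 also received a control construct, and the stated range of samples leaves out the third K295A library. The hairpin sequence, the promoter of the re-expressed gene and whether cells were pooled or cloned are not stated in the labels. A second knockdown of FOXA1, made with the pLKO vector (shFOXA1) in separate libraries and compared with its own pLKO control, is used at the end. Nothing in the labels ties replicates to separate cultures, and the p-values therefore measure a spread between libraries that may be technical.

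FOXA1 is a pioneer transcription factor of the forkhead family: it binds its motif in closed chromatin and opens it for other factors. In the prostate it works with HOXB13 and GATA2 at enhancers of luminal genes, and it is known to restrain programmes of migration, inflammation and other lineages. A re-expression arm asks which changes after a knockdown return when the protein is supplied again.

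Log2 values of libraries within a group correlated across genes at r of 0.990 to 0.993, genes not being independent replicates, and no 2 columns were identical. Depth, read from the steps between low values relative to the first control library, was 1.01 to 1.23 in the shFoxA1 libraries and 0.847 to 1.30 in the shFoxA1 + WT libraries. Levels of the 10 luminal prostate markers summed to 2464 to 2509 RPKM in shFoxA1 and 2043 to 2094 RPKM in shFoxA1 + WT, and each had a mean of at least 1 RPKM in both groups. Among markers of other cells, the pan-leukocyte gene PTPRC was listed at 0 in every library, and the immune sum, 32.5 to 35.4 RPKM in shFoxA1 and 8.51 to 9.73 in shFoxA1 + WT, was nearly all CD68, a lysosomal gene. Basal markers summed to 6.43 to 8.48 RPKM in shFoxA1 and 1.64 to 2.78 in shFoxA1 + WT, stromal markers to 11.9 to 12.7 and 8.09 to 8.41. In bulk RNA, fewer cells of a type and less RNA per cell cannot be told apart.

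FOXA1 itself (chromosome 14, 37589984 to 37596059, minus strand, GRCh38) was the first check. Its level was 131, 134 and 129.6 RPKM in the 3 control libraries, 83.1, 83.98 and 80.4 in shFoxA1 and 151, 152 and 152 in shFoxA1 + WT. The 3 groups did not overlap, the knockdown lying lowest and the re-expressed libraries highest. With re-expression FOXA1 rose by 0.87 ± 0.024 on the log2(RPKM + 1) scale (value ± SE, n = 3 per group, limma adjusted p = 5.4e-11), and it stood above the control by 0.21 ± 0.024 (adjusted p = 3.7e-05). In that comparison with the control the median of all genes was 0.10. Values are per gene, so RNA of the endogenous gene and RNA of the re-expressed one cannot be told apart. The related pioneer genes FOXA2 and FOXA3 did not enter the test, their highest values in the 6 libraries being 0.0859 and 0.0892 RPKM.

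HOXB13, a homeobox partner of FOXA1, had 128, 128 and 129.9 RPKM in shFoxA1 and 125, 128 and 129 in shFoxA1 + WT (-0.02, adjusted p = 0.55), and was called lower after median-ratio scaling of the libraries (-0.11, adjusted p = 0.0016). The WT libraries thus overlapped those of the knockdown. For the other genes targeted in the series, the deubiquitinase USP7 changed by 0.09 ± 0.035 (adjusted p = 0.0495; -0.00249 after scaling), the spindle checkpoint gene BUB3 by 0.24 ± 0.046 (adjusted p = 9.0e-04) and the polycomb methyltransferase EZH2 by 0.34 ± 0.039 (adjusted p = 1.3e-05).

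**Figure D1:**
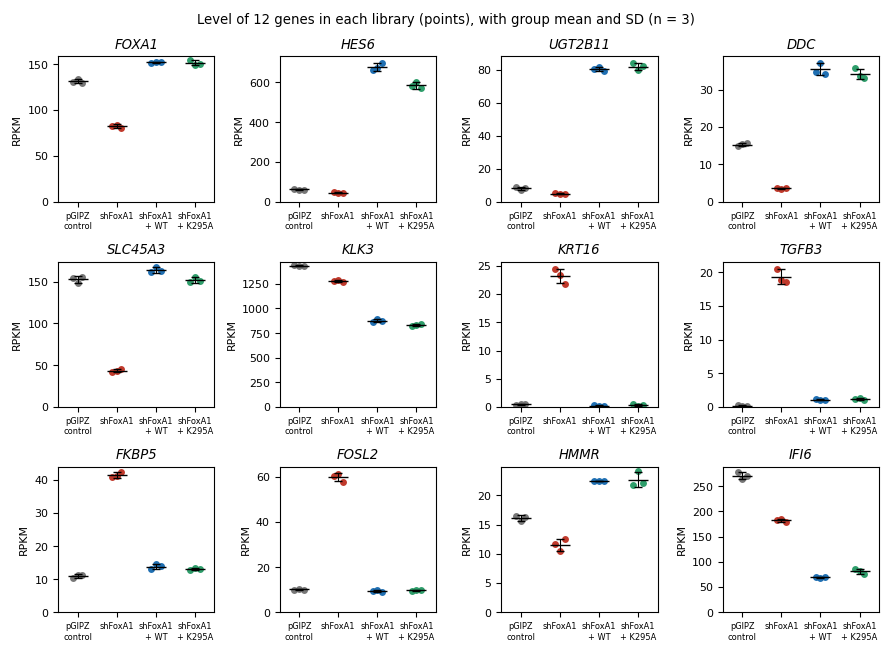
Levels in RPKM (y axis, from 0) of 12 genes in each library of the 4 groups of the pGIPZ experiment (points), with group mean and SD (bars, n = 3). FOXA1, SLC45A3 and HMMR are lowest in shFoxA1, KRT16, TGFB3, FKBP5 and FOSL2 are highest there, HES6 and UGT2B11 exceed the control only with a re-expressed FOXA1, and KLK3 and IFI6 fall from control to shFoxA1 and again to shFoxA1 + WT.

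Across all genes the changes were many and mostly small. limma called 6916 of 12146 genes (56.9%) at adjusted p under 0.05, 4550 higher (37.5%) and 2366 lower (19.5%) with re-expression, and 5602 of the called genes changed by less than 1.5-fold. At 2-fold or more, 140 genes were higher (1.15%) and 265 lower (2.18%), so that large changes were more often downward. With a pseudocount of 0.1 in place of 1, 695 genes changed by 2-fold or more in place of 405, 400 of them lower. In 7627 genes (62.8%) the 3 and 3 libraries did not overlap. The median of all genes was 0.08, and median-ratio scaling, which removes that shift, called 3256 higher and 3277 lower, which moved the upward share of all calls from 65.8% to 49.8%. Every gene called after scaling in the higher direction had also been called higher before it. Since scaling lowered most changes by a similar amount, that was nearly fixed in advance.

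**Figure D2:**
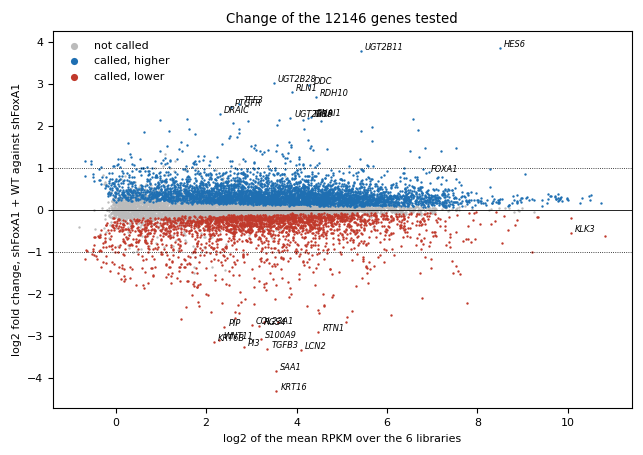
Log2 fold change of shFoxA1 + WT against shFoxA1 (y axis) against the log2 of the mean RPKM over the 6 libraries (x axis), 1 point per gene for 12146 genes, with genes called higher in blue, called lower in red and the rest in grey; dotted lines mark 2-fold. The lowest fold changes reach -4.31 (KRT16) and the highest 3.85 (HES6), and 140 blue and 265 red points lie at or beyond the dotted lines.

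HES6 rose most. This gene encodes a helix-loop-helix protein of the HES family (chromosome 2, 238238267 to 238240662, minus strand). Its level was 47.7, 45.7 and 44.6 RPKM in shFoxA1 and 661, 673 and 698 in shFoxA1 + WT, a log2 fold change of 3.85 ± 0.036 (adjusted p = 1.3e-14). The control libraries had 64.6, 61.2 and 59.3 RPKM, so HES6 in the re-expressed libraries also stood above every control library, by 3.44 (adjusted p = 4.2e-14). Comparisons with the control share libraries with the comparison of interest, and their values are given side by side for that reason, without a test of overlap. For orientation, limma called 6140 genes (50.6%) in shFoxA1 against the control, 245 of them higher (2.02%) and 104 lower (0.856%) by 2-fold or more, and 5675 (46.7%) in shFoxA1 + WT against the control, 61 higher (0.502%) and 90 lower (0.741%) by 2-fold or more. In shFoxA1 + WT against the control the median of all genes was 0.10, and after median-ratio scaling 4692 genes were called. Whether a gene differs from the control by about that amount therefore depends on the scaling.

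Genes of the UGT2B family, which encode enzymes that conjugate androgens and other steroids with glucuronic acid for excretion, were the next group. UGT2B11 (chromosome 4, 69199951 to 69214731, minus strand) was at 5.03, 4.94 and 4.99 RPKM in shFoxA1 and 80.6, 81.6 and 79.3 in shFoxA1 + WT (3.77 ± 0.051, adjusted p = 1.7e-13). UGT2B28 (chromosome 4, 69280499 to 69295050, plus strand) was at 2.39, 1.43 and 1.404 RPKM and 21.7, 19.3 and 21.4 (3.01 ± 0.108, adjusted p = 5.1e-10). In both, no WT library came near a knockdown or control library, the control means being 8.13 and 2.02 RPKM. UGT2B15, one of the main enzymes for dihydrotestosterone breakdown products, was at 4.45, 4.43 and 4.93 RPKM in shFoxA1, 23.9, 23.5 and 25.7 in shFoxA1 + WT and 6.59, 6.79 and 6.64 in the control (2.18 ± 0.053, adjusted p = 1.8e-11). UGT2B17, of similar substrate range, rose by 1.54 ± 0.050 from 5.56 to 18.04 RPKM (adjusted p = 2.0e-10). The sequences of these genes are close to each other, so reads may have been divided among them.

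Of the 12 genes that rose most, 8 had a RefSeq promoter in the table used, and those of UGT2B15 and of DRAIC, a long noncoding RNA of luminal prostate cells, held a forkhead match. They are shown for that reason. Of the 12 genes that fell most, 7 had a promoter there, and 2 of these, S100A9 and RGS4, held a match as well. The sequences are RefSeq promoters (GRCh38.p14), 250 bases before to 50 after the annotated start, 5′ to 3′ in the gene's direction. Capitals mark the FOXA matches, TGTTTAC or TGTTTGC on either strand.
UGT2B15 (chr4:68670603-68670902, minus strand): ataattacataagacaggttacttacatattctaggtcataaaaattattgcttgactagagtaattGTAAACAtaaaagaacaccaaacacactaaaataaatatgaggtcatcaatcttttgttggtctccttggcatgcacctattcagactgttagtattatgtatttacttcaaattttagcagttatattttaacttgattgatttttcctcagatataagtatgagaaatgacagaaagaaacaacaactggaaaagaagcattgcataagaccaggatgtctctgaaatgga
DRAIC (chr15:69561470-69561769, plus strand): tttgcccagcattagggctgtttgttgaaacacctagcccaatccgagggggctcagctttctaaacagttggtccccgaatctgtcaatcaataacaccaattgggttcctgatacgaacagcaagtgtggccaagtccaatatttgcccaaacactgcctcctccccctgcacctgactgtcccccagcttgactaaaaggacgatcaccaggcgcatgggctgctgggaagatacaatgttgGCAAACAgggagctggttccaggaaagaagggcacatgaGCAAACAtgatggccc
In UGT2B15 the match GTAAACA begins 183 bases before the start. DRAIC has GCAAACA 5 bases before its start and again at base 35 after it. Of all 35116 promoters in the table, 2517 (7.17%) hold either motif, and a match is a description of the sequence, not evidence of binding. DRAIC was at 1.02, 1.15 and 0.885 RPKM in shFoxA1, 8.56, 8.11 and 9.81 in shFoxA1 + WT and 4.14, 2.52 and 3.92 in the control, a change of 2.28 ± 0.137 with re-expression (adjusted p = 4.9e-08).

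The rest of the 12 highest genes had other roles. DDC, which encodes the decarboxylase that makes dopamine and serotonin, was at 3.62, 3.54 and 3.71 RPKM in shFoxA1 and 34.8, 37.2 and 34.2 in shFoxA1 + WT (2.98 ± 0.043, adjusted p = 2.8e-13). The control had 14.8, 15.4 and 15.8 RPKM, between those groups and overlapping neither. The hormone gene RLN1 (relaxin) was at 4.03, 3.62 and 1.68 RPKM and 25.3, 29.4 and 24.9 (2.79 ± 0.178, adjusted p = 8.4e-08), and here the WT libraries did not differ from the control by the test (0.28, adjusted p = 0.22). RDH10, a retinol dehydrogenase in retinoic acid synthesis, rose by 2.69, the trefoil factor TFF3 by 2.52, the prostaglandin receptor gene PTGFR by 2.45 and TARP, a transcript of the T-cell receptor gamma locus made in prostate epithelium, by 2.17, each above the control as well. TARP overlaps other genes of that locus, and values per gene cannot separate them.

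GNAI1, an inhibitory G protein subunit, followed another order. It was at 2.31, 2.104 and 2.46 RPKM in the control, 6.43, 6.64 and 6.56 in shFoxA1 and 33.6, 33.5 and 33.7 in shFoxA1 + WT. The knockdown was above the control (1.20 ± 0.047, adjusted p = 1.1e-09) and re-expression was above the knockdown (2.20 ± 0.047, adjusted p = 5.8e-12), with no overlap at either step. Of the 12 highest genes, GNAI1 was the one that also rose with the knockdown.

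**Figure D3:**
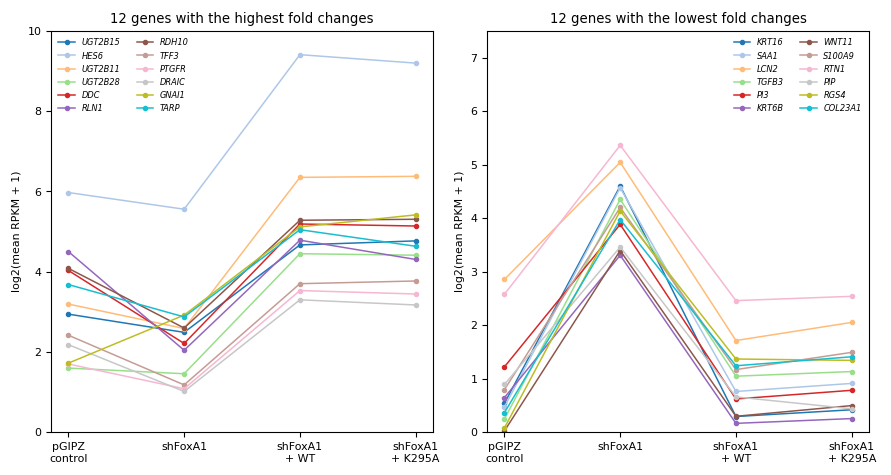
Mean level per group as log2(mean RPKM + 1) (y axis) of the 12 genes with the highest (left) and the 12 with the lowest (right) fold change of shFoxA1 + WT against shFoxA1, over the 4 groups of the pGIPZ experiment (x axis, n = 3 libraries each); lines join the groups of 1 gene. On the right every gene peaks in shFoxA1, and on the left HES6 and GNAI1 lie furthest above the control in shFoxA1 + WT, by 3.44 and 3.40.

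The 12 genes that fell most, among them 2 keratins, were lower in the control, highest in the knockdown and lower again with wild-type FOXA1. KRT16, a keratin of stressed and squamous epithelium (chromosome 17, 41609778 to 41615899, minus strand), was at 0.312, 0.509 and 0.535 RPKM in the control, 24.4, 23.4 and 21.9 in shFoxA1 and 0.305, 0.246 and 0.1203 in shFoxA1 + WT. The WT libraries lay below every control library, and the change with re-expression was -4.31 ± 0.094 (adjusted p = 7.3e-12). Its partner keratin KRT6B changed by -3.14 ± 0.086 from 8.89 to 0.1201 RPKM. Keratin genes of these types have close copies between which reads can be shared.

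Several of the others encode secreted proteins. SAA1 (serum amyloid A) was at 20.9, 22.9 and 24.4 RPKM in shFoxA1 and 0.995, 0.779 and 0.305 in shFoxA1 + WT (-3.83 ± 0.204, adjusted p = 1.6e-08), its near-identical neighbour SAA2 at 2.39 and 0.103 RPKM (-1.61). LCN2, the iron-binding lipocalin, was at 32.98, 31.1 and 31.7 RPKM and 2.003, 2.31 and 2.51 (-3.33 ± 0.108, adjusted p = 2.0e-10), below all control libraries (6.52, 5.14 and 7.01). The elastase inhibitor PI3 changed by -3.25, the calcium-binding protein gene S100A9 by -3.06 and the apocrine secretory gene PIP by -2.80.

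TGFB3, a transforming growth factor beta ligand (chromosome 14, 75958099 to 75982991, minus strand), was at 0.259, 0.126 and 0.169 RPKM in the control, 20.6, 18.9 and 18.6 in shFoxA1 and 1.17, 1.01 and 1.02 in shFoxA1 + WT. It changed by -3.30 ± 0.079 with re-expression (adjusted p = 1.7e-11) and stayed above the control by 0.80 ± 0.079 (adjusted p = 8.8e-06). RGS4, a brake on G protein signalling, had the same order, 0.0449, 0.0183 and 0.105 RPKM in the control, 16.02, 16.8 and 16.8 in shFoxA1 and 1.58, 1.41 and 1.75 in shFoxA1 + WT (-2.77, and 1.29 above the control, adjusted p = 6.3e-08). The ligand gene WNT11 changed by -3.10, the reticulon gene RTN1 by -2.91 and the collagen gene COL23A1 by -2.73, COL23A1 also staying above the control (0.88, adjusted p = 2.0e-05). For RTN1, at 3.805, 4.68 and 4.998 RPKM in shFoxA1 + WT and 5.32, 5.05 and 4.52 in the control, the test found no difference (adjusted p = 0.29), where the median of all genes was 0.10.

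Genes induced by androgen moved both ways. Of 49 measured, 21 rose (42.9%, all genes 37.5%), 22 fell (44.9%, all genes 19.5%) and 6 were not called, with a median of -0.03 against 0.08 for all genes. The share that rose was thus near that of all genes. KLK3, which encodes prostate-specific antigen, was at 1444, 1428 and 1435 RPKM in the control, 1276, 1293 and 1268 in shFoxA1 and 862, 888 and 875 in shFoxA1 + WT. The 3 groups did not overlap, and re-expression moved KLK3 further from the control (-0.55 ± 0.016, adjusted p = 8.9e-11). Its neighbour KLK2, at 107, 104 and 104 RPKM in the control, 125, 128 and 118 in shFoxA1 and 78.7, 78.9 and 75.99 in shFoxA1 + WT, changed by -0.66 ± 0.030 (adjusted p = 3.5e-09) to below the control.

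Other androgen-induced genes rose. SLC45A3, the prostein transporter gene, was at 154, 148 and 156 RPKM in the control, 42.3, 42.7 and 45.5 in shFoxA1 and 162, 168 and 162 in shFoxA1 + WT (1.89 ± 0.032, adjusted p = 1.0e-12). Re-expression thus took SLC45A3 back to slightly above the control range. TMPRSS2, a surface protease and common fusion partner of ERG, was at 269.5, 270.4 and 272 RPKM, 146, 146 and 143 and 200.2, 205 and 199 in the same order of groups (0.47 ± 0.020, adjusted p = 1.8e-09), between knockdown and control. TSC22D3, a leucine zipper gene also induced by glucocorticoids, was at 7.13, 6.92 and 6.73 RPKM in shFoxA1 and 29.4, 31.3 and 26.8 in shFoxA1 + WT (1.93), above the control mean of 10.7.

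A further set of androgen-induced genes was high in the knockdown. FKBP5, a chaperone that tunes steroid receptors, was at 10.3, 11.3 and 11.2 RPKM in the control, 40.8, 41.3 and 42.4 in shFoxA1 and 13.1, 14.5 and 13.9 in shFoxA1 + WT (-1.52 ± 0.045, adjusted p = 8.7e-11). The kinase gene SGK1 fell from 17.5 to 1.89 RPKM (-2.68) and the transcription factor gene MAF from 45.4 to 10.1 RPKM (-2.07). FKBP5 and SGK1 are, like TSC22D3, also targets of the glucocorticoid receptor, and TSC22D3 moved in the opposite direction.

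Luminal identity genes were divided too: of 35 measured, 17 rose (48.6%, all genes 37.5%), 15 fell (42.9%, all genes 19.5%) and 3 were not called (median -0.02). TFF3 and TFF1, secreted trefoil factors, rose by 2.52 and 1.38, and AGR2, a disulfide isomerase of secretory epithelium, by 1.03. TFF1 went from 3.696, 5.62 and 5.77 RPKM to 14.8, 13.5 and 15.1 and AGR2 from 11.9, 14.3 and 15.1 to 29.2, 27.4 and 30.2. Unlike TFF3, both stayed below all control libraries, the control means being 29.9 and 43.2 RPKM. GRHL2, a grainyhead factor that maintains epithelial junction genes, was at 25.7, 27.6 and 26.8 RPKM in the control, 74.8, 76.5 and 76.7 in shFoxA1 and 29.4, 30.03 and 29.1 in shFoxA1 + WT (-1.34 ± 0.031, adjusted p = 1.3e-11), and so fell back to near the control.

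Among 35 measured forkhead factors and FOXA1 partners, 11 rose (31.4%, all genes 37.5%), 15 fell (42.9%, all genes 19.5%) and 9 were not called (median -0.02). The Groucho corepressors TLE3 and TLE1 moved in opposite directions. TLE3 was at 16.8, 18.8 and 18.5 RPKM in shFoxA1 and 36.3, 35.8 and 35.5 in shFoxA1 + WT (0.96 ± 0.041, adjusted p = 2.4e-09), TLE1 at 47.1, 44.5 and 45.1 and 15.5, 16.3 and 15.3 (-1.48 ± 0.047, adjusted p = 1.7e-10). The nuclear factor NFIB, which binds beside FOXA1, fell from 22.3 to 6.03 RPKM (-1.73), and the forkhead gene FOXO3, which promotes arrest and apoptosis, from 25.04 to 10.2 RPKM (-1.21). That level of FOXO3 did not differ from the control by the test (-0.02, adjusted p = 0.68), where the median of all genes was 0.10.

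The 19 measured genes of steroid and drug conjugation and metabolism counted 9 that rose (47.4%, all genes 37.5%), 6 that fell (31.6%, all genes 19.5%) and 4 not called (median 0.16), the UGT2B genes above having the largest rises. Few genes of liver and gut programmes, in which FOXA factors also act, were expressed: 6 of 35 were measured, of which 3 rose (DDC, the thyroid hormone carrier TTR at 1.61 and the tyrosine breakdown enzyme HGD at 0.93), 1 fell (the protease inhibitor gene SERPINA3 at -2.20) and 2 were not called, the urea cycle enzyme CPS1 (-0.08) among them.

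Genes of epithelial-mesenchymal transition and TGF-beta signalling were mostly lower with wild-type FOXA1. Of 40 listed, 21 were measured, and 14 of those fell (66.7%, all genes 19.5%), 11 by 2-fold or more (52.4%, all genes 2.18%), 3 rose (14.3%, all genes 37.5%) and 4 were not called, with a median of -1.34. SNAI2 (Slug), a repressor of epithelial genes, was at 0.424, 0.415 and 0.475 RPKM in the control, 10.6, 13.1 and 10.4 in shFoxA1 and 1.17, 1.502 and 0.653 in shFoxA1 + WT (-2.57 ± 0.136, adjusted p = 1.6e-08). IGFBP3, which binds insulin-like growth factors, was at 58.8, 58.6 and 61.2 RPKM in shFoxA1 and 8.902, 8.103 and 8.56 in shFoxA1 + WT (-2.67 ± 0.067, adjusted p = 2.6e-11), and the matrix glycoprotein THBS1 at 38.6, 38.7 and 38.3 and 6.28, 6.22 and 6.301 (-2.44 ± 0.036, adjusted p = 3.2e-13). IGFBP3 ended below the control (14.3, 17.5 and 15.2 RPKM) and THBS1 above it (4.28, 4.06 and 4.16). The 3 that rose were the collagen gene COL1A1 (0.35), the inhibitory SMAD7 (0.37) and the receptor gene TGFBR1 (0.40). Chosen after its values were seen, FN1 (fibronectin) was the most abundant member that fell, from 355, 361 and 361 RPKM to 77.04, 78.7 and 73.3 (-2.22 ± 0.029, adjusted p = 1.7e-13).

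Beside these falls stand the marker sums given above. Of the 29 listed markers of stromal, immune, basal and endothelial cells 5 were measured, 3 falling (60.0%, all genes 19.5%) and 2 rising (40.0%, all genes 37.5%). CD68 (-1.79), the smooth muscle actin ACTA2 (-1.55) and the basal keratin KRT14 (-1.22) fell, COL1A1 and the endothelial VWF (0.33) rose. Their part in the result was not tested, and the leukocyte marker PTPRC was at 0 throughout.

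Inflammatory and NF-kB genes fell almost throughout the list: of 30, 16 were measured, 15 fell (93.8%, all genes 19.5%) and none rose (median -1.12), and in all 16 the 3 and 3 libraries did not overlap, against 62.8% of all genes. RELA, the NF-kB subunit regulated mainly as a protein, was the member not called (-0.08, adjusted p = 0.094), and it was called lower after scaling. Members such as SAA1 and SAA2 entered only through shFoxA1, so the entry limit set their direction and their lack of overlap. Besides SAA1, SAA2 and LCN2, the largest change was that of NFKBIZ, an inducible regulator of NF-kB, at 3.28, 2.99 and 3.304 RPKM in the control, 14.2, 14.6 and 14.2 in shFoxA1 and 2.05, 2.51 and 2.21 in shFoxA1 + WT (-2.24 ± 0.064, adjusted p = 7.5e-11). Against the control, shFoxA1 had 11 of the 16 higher and 3 lower, NFKB2 (-0.66), RELB (-0.24) and BIRC3 (-0.80), with 26.0% and 24.5% of all genes called higher and lower. In turn, shFoxA1 + WT had none higher and 9 lower (all genes 34.9% and 11.8%).

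Of 25 measured genes of growth factor signalling and MAPK feedback, 7 rose (28.0%, all genes 37.5%), 12 fell (48.0%, all genes 19.5%) and 6 were not called (median -0.16). The AP-1 subunit FOSL2 was at 10.1, 10.5 and 10.05 RPKM in the control, 60.6, 61.4 and 57.9 in shFoxA1 and 9.43, 9.97 and 9.13 in shFoxA1 + WT (-2.54 ± 0.040, adjusted p = 5.0e-13), and JUN, its dimer partner, at 31.6, 33.4 and 33.9, 71.2, 75.6 and 74.2 and 22.2, 20.8 and 21.4 (-1.73 ± 0.040, adjusted p = 1.0e-11). FOSL2 came back to a level that the test did not separate from the control (-0.09, adjusted p = 0.075), and JUN went below it (-0.60, adjusted p = 3.2e-07). The median of all genes against the control was 0.10. DUSP4, a phosphatase that switches off MAP kinases, rose instead, from 4.16, 3.98 and 4.17 RPKM to 19.7, 19.3 and 19.8 (2.01 ± 0.066, adjusted p = 2.1e-10).

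Heat shock and chaperone genes gave 8 higher (33.3%, all genes 37.5%) and 12 lower (50%, all genes 19.5%) of 24 (median -0.03). The 4 that fell by 2-fold or more were FKBP5 and 3 chaperones that hold unfolded proteins: HSPB8 (9.01 to 1.17 RPKM, -2.21), CRYAB (11.8 to 1.904 RPKM, -2.19) and the secreted clusterin gene CLU (38.97 to 8.96 RPKM, -2.00). CLU was at 9.15, 8.595 and 9.13 RPKM in shFoxA1 + WT and 9.09, 9.93 and 9.51 in the control, a difference the test did not call (adjusted p = 0.18). The median of all genes against the control was 0.10.

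Cell division genes rose together, each by less than 2-fold. Of 56 genes of mitosis and the spindle checkpoint, all measured, 55 rose (98.2%, all genes 37.5%) and 1 fell, with a median of 0.65. After scaling the median was 0.57, with 54 higher and 1 lower, against 3256 and 3277 of all 12146 genes. None overlapped between the 3 and 3 libraries, which held for 62.8% of all genes. HMMR, a spindle protein, was at 16.6, 15.6 and 16.4 RPKM in the control, 11.7, 10.5 and 12.5 in shFoxA1 and 22.5, 22.4 and 22.4 in shFoxA1 + WT (0.90 ± 0.056, adjusted p = 6.8e-08). The kinetochore gene NUF2 was at 7.73, 7.02 and 9.28 RPKM in shFoxA1 and 16.7, 14.9 and 15.02 in shFoxA1 + WT (0.88), and the mitotic kinase gene PBK at 12.03, 11.5 and 10.8 and 20.1, 21.7 and 21.97 (0.84). In all 3 genes every WT library was above every knockdown and every control library. Against the control, 42 of the 56 were lower (75.0%, all genes 24.5%) and 1 higher (CKS2) in shFoxA1, and 52 were higher (92.9%, all genes 34.9%) and none lower in shFoxA1 + WT.

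CKS2, a small subunit of cyclin-dependent kinases, was the exception. It was at 60.9, 73.1 and 76.2 RPKM in the control, 213, 222 and 225 in shFoxA1 and 112, 122 and 120.4 in shFoxA1 + WT, highest in the knockdown and between the others with re-expression (-0.89 ± 0.066, adjusted p = 3.4e-07). Many mitotic promoters carry a cell cycle homology region (CHR), bound by the DREAM and MuvB complexes, together with CCAAT boxes. The promoters of HMMR, with the largest rise in the list, and CKS2, the one that fell, are shown to compare them, again from RefSeq (GRCh38.p14), with CHR (TTTGAA) and CCAAT in capitals on either strand, adjoining or overlapping matches running together.
HMMR (chr5:163460382-163460681, plus strand): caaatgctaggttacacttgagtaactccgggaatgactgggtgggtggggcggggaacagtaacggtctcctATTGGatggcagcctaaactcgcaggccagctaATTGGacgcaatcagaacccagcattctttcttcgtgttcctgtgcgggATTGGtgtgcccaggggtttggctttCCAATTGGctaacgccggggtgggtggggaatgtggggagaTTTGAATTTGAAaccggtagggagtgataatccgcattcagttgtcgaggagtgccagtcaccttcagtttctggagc
CKS2 (chr9:89310945-89311244, plus strand): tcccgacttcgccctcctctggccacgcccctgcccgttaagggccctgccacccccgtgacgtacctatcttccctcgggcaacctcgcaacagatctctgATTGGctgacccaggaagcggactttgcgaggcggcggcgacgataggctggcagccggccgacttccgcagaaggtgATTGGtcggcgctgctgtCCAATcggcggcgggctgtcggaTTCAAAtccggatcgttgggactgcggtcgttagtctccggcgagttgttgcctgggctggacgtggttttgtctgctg
HMMR has 2 CHR matches, 28 and 22 bases before the start, and 5 of CCAAT. CKS2 has a CHR match 29 bases before the start and 3 of CCAAT, so the motifs searched are present in both. Promoters were found for 47 of the 56 genes (83.9%), of which 31 (66.0%) hold the CHR letters and 34 (72.3%) CCAAT. In all 35116 promoters of the table the shares are 15.2% and 34.6%. These shares describe the list whichever way its genes moved.

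All 56 DNA replication genes were measured and all rose (all genes 37.5%), with a median of 0.45. After scaling, 50 were called higher and none lower, against 3256 and 3277 of all 12146 genes. The largest changes were those of the primase subunit PRIM1 (0.74), the helicase factor CDC45 (0.70) and the clamp loader subunits RFC3 (0.68) and RFC5 (0.63). PRIM1 was at 7.97, 6.37 and 7.04 RPKM in shFoxA1 and 12.3, 13.1 and 12.4 in shFoxA1 + WT, with no overlap. Of 73 genes of cytosolic ribosomal proteins 69 rose (94.5%, all genes 37.5%) and none fell (median 0.24; 58 after scaling, 0.15), RPL4 from 411, 414 and 409 RPKM to 519.9, 538 and 525 (0.36).

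Of 36 p53 targets and CDK inhibitors, 10 rose (27.8%, all genes 37.5%), 12 fell (33.3%, all genes 19.5%) and 14 were not called (median -0.02). Scaling made this 7 and 17, and of all 12146 genes it called 3256 higher and 3277 lower. CDKN2B (p15), an inhibitor of the G1 kinases that TGF-beta induces, changed most: it was at 3.75, 4.24 and 3.98 RPKM in the control, 7.72, 8.21 and 7.93 in shFoxA1 and 0.695, 0.5298 and 0.778 in shFoxA1 + WT (-2.43 ± 0.073, adjusted p = 1.1e-10). The WT libraries were the lowest of the 3 groups. The checkpoint gene SFN changed by -1.64, and the stress sensors GADD45A by -0.88 and GADD45B by -0.74.

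Interferon response genes were lower in the knockdown than in the control and lower again with wild-type FOXA1. Of 38 measured, 30 fell with re-expression (78.9%, all genes 19.5%), 7 by 2-fold or more (18.4%, all genes 2.18%), 2 rose and 6 were not called (median -0.53). Against the control, 32 of the 38 were lower (84.2%, all genes 24.5%) and none higher in shFoxA1 (median -0.61), and 36 were lower (94.7%, all genes 11.8%) and 1 higher (IFITM2) in shFoxA1 + WT (median -1.21). IFI6, a mitochondrial antiviral protein, was at 278, 264 and 270.0 RPKM in the control, 183, 185 and 179 in shFoxA1 and 69.6, 67.9 and 70.4 in shFoxA1 + WT (-1.38 ± 0.040, adjusted p = 7.7e-11). OAS1, a sensor of double-stranded RNA, was at 18.4, 17.5 and 21.2, 13.1, 13.5 and 13.96 and 3.69, 2.49 and 3.15 in that order (-1.83 ± 0.097, adjusted p = 1.6e-08). For both, the groups formed 3 separate steps downward. IFI27 changed by -1.76 and the membrane antiviral gene IFITM1 by -1.34. The 2 that rose were IFITM2 (0.17) and the ISG15 ligase HERC5 (0.65).

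Metabolic groups changed by smaller amounts. Of 41 genes of the stress response and amino acid synthesis, 30 rose (73.2%, all genes 37.5%), 6 fell (14.6%, all genes 19.5%) and 5 were not called (median 0.37). Serine pathway and related enzymes were among the rises, PSAT1 from 42.5, 44.1 and 46.1 RPKM to 84.4, 85.3 and 82.6 (0.91) and the mitochondrial PEP carboxykinase PCK2 from 29.95, 32.4 and 30.2 to 63.8, 66.5 and 63.7 (1.04), whereas the stress transcription factors ATF3 (-0.94) and DDIT3 (CHOP, -0.93) fell. Of 38 genes of cholesterol and fatty acid synthesis, 24 rose (63.2%, all genes 37.5%), 4 fell (10.5%, all genes 19.5%) and 10 were not called (median 0.19). After scaling 18 rose and 4 fell, against 3256 and 3277 of all 12146 genes. ELOVL7, a fatty acid elongase, rose from 9.68, 9.75 and 9.99 RPKM to 30.2, 30.2 and 29.3 (1.52). The desaturase SCD and the acyl-CoA synthetase ACSL3 rose by 0.77 and 0.88 and stayed below the control, by -0.24 and -0.17.

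Hypoxia and glycolysis genes gave 16 higher (44.4%, all genes 37.5%) and 13 lower (36.1%, all genes 19.5%) of 36, and their median of 0.07 was near the 0.08 of all genes. The hypoxia-inducible factors themselves were among the latter: HIF1A fell from 32.1, 32.6 and 31.1 RPKM to 16.1, 15.8 and 15.7 (-0.97). EPAS1 (HIF-2alpha), a low gene, fell from 2.22, 2.51 and 2.47 RPKM to 0.608, 0.633 and 0.506 (-1.10). The stress-responsive NDRG1 fell as well (-1.24). Of the 16 that rose, NDUFA4L2 changed most, from 2.71, 4.16 and 3.51 RPKM to 8.06, 8.71 and 7.77 (1.05). Of 29 polycomb subunits 10 rose (34.5%, all genes 37.5%), 5 fell (17.2%, all genes 19.5%) and 14 were not called, shares near those of all genes. Scaling turned the counts to 6 and 9, where 3256 and 3277 of all 12146 genes were called higher and lower. The one polycomb-linked gene with a change near 2-fold was the histone chaperone RBBP7, at 33.1, 31.3 and 30.1 RPKM in the control, 81.9, 85.1 and 83.6 in shFoxA1 and 43.2, 42.4 and 42.9 in shFoxA1 + WT (-0.95 ± 0.036, adjusted p = 8.4e-10). The others that fell were RYBP (-0.22), PCGF1 (-0.20), PHF1 (-0.18) and AEBP2 (-0.13). The lower count was 1 without the second shFoxA1 + WT library. Among the 10 that rose, the largest changes were those of CBX6 (0.43), PCGF2 (0.40) and KDM2B (0.34). Neuroendocrine and neuronal markers were mostly unexpressed: 7 of 27 were measured. DDC and the deubiquitinase UCHL1 (0.70) rose (28.6%, all genes 37.5%). The synaptic vesicle gene SYT4 (-1.34) and the repressor of neuronal genes REST (-0.29) fell (28.6%, all genes 19.5%), and 3 were not called. UCHL1 entered the test only through shFoxA1 + WT, so the entry limit set its direction. Of 23 replication-dependent histone genes 10 fell (43.5%, all genes 19.5%), none rose and 13 were not called (median -0.26), HIST1H2BC falling most (-1.07). Their close copies can share reads.

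**Figure D4:**
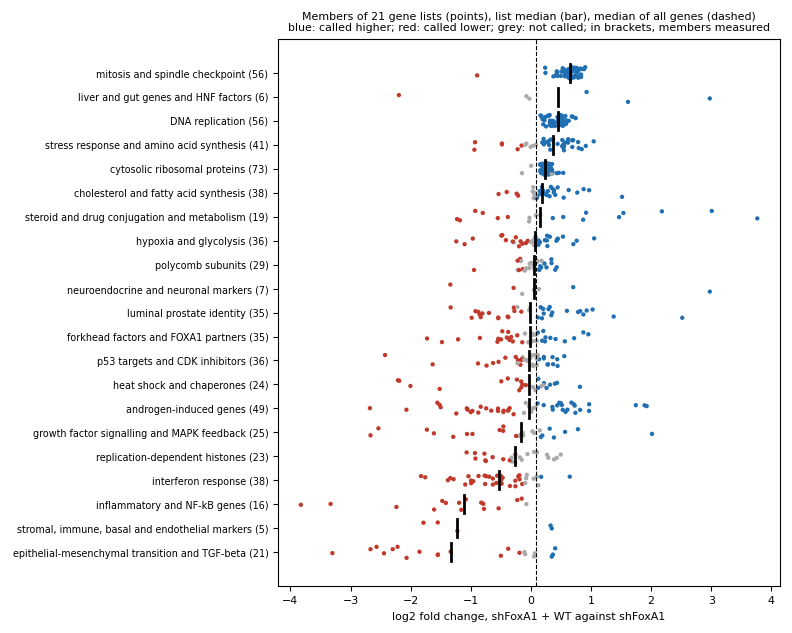
Log2 fold change of shFoxA1 + WT against shFoxA1 (x axis) for the measured members of 21 gene lists (y axis, number of members measured in brackets), coloured by call, with the list median (bar) and the median of all genes (dashed, 0.08). Mitosis and DNA replication members lie right of the dashed line except for CKS2, NF-kB members lie left of it, and androgen-induced and luminal genes spread to both sides.

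The pLKO knockdown of FOXA1 shares no library with these groups and has its own control, so its gene sets can be read in the re-expression comparison. In it limma called 8641 of 12115 genes (71.3%), 1109 lower by 2-fold or more (9.15%) and 532 higher by 2-fold or more (4.39%). Of the 1109 genes, 1091 were measured here, and 911 of them (83.5%) rose with wild-type FOXA1, 32 (2.93%) fell and 148 were not called, with a median of 0.43, against 37.5% and 19.5% of all genes. Of the 532 genes, 485 were measured, and 341 (70.3%) fell, 29 (5.98%) rose and 115 were not called (median -0.43). Scaling, after which 3256 of all 12146 genes were called higher, reduced the 29 to 16. Of the 140 genes that rose by 2-fold or more with re-expression, 68 (48.6%) were in the set that was lower after the pLKO knockdown, which is 6.13% of that set. Of the 265 that fell by 2-fold or more, 113 (42.6%) were in the set that was higher there, 21.2% of it.

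The 5 genes that rose by 2-fold or more here and were called higher after the pLKO knockdown too were DUSP4 (2.01 and 1.25), ATP1B1 (1.39 and 1.15), TMEM59L (1.33 and 0.71), RGS11 (1.15 and 0.67) and CERK (1.00 and 1.07).

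Single genes differed in how the knockdown and the re-expression compared. SLC45A3 changed by -4.41 ± 0.082 in the pLKO knockdown and 1.89 with re-expression, and CRYAB by 5.49 ± 0.098 and -2.19. RDH10 and GNAI1, both among the 12 highest genes here, were not called after the pLKO knockdown (-0.06, adjusted p = 0.38, and -0.04, adjusted p = 0.54). All 56 mitosis genes were lower in the pLKO knockdown, CKS2 included (median -2.92), where shFoxA1 in the pGIPZ experiment had a median of -0.28. The interferon list, of which 30 genes were tested there, had 10 higher and 7 lower in the pLKO knockdown (median 0.13; all genes 25.8% higher and 45.6% lower). Levels were not compared between the 2 experiments, since their tables were made separately.

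**Figure D5:**
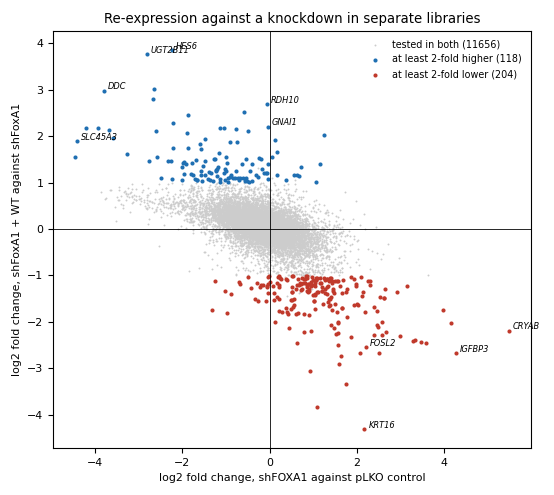
Log2 fold change of shFoxA1 + WT against shFoxA1 (y axis) against that of shFOXA1 against the pLKO control, from separate libraries (x axis), 1 point per gene tested in both, with genes changed by 2-fold or more with re-expression in blue (118 higher) and red (204 lower). Of the blue points 95 were called lower after the pLKO knockdown and 5 higher, and of the red points 170 were called higher and 14 lower. Of all 12115 genes tested in that knockdown, 45.6% were called lower and 25.8% higher.

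Few genes differed between the K295A form and the wild type. FOXA1 RNA itself was at 155, 149 and 150.0 RPKM in shFoxA1 + K295A, and the difference from shFoxA1 + WT had a 95% interval of -0.06 to 0.05 on the log2 scale. limma called 25 of 12146 genes (0.206%) between the forms, 11 higher (0.0906%) and 14 lower (0.115%) with K295A, and 1288 had an unadjusted p under 0.05. Fitted on those 2 groups alone, it called none, with 1241 at an unadjusted p under 0.05. Leaving out 1 library gave 10 to 17, the fewest without the second shFoxA1 + WT library. A gene that was not called is not shown to respond alike.

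Of the 38 measured genes of the interferon list, 5 were called higher with K295A (13.2%, all genes 0.0906%), none lower and 33 were not called; the fit on the 2 groups alone called none of them. IFIT3 was at 4.22, 4.39 and 4.27 RPKM in shFoxA1 + WT and 6.42, 7.004 and 7.24 in shFoxA1 + K295A (0.58 ± 0.048, adjusted p = 8.7e-04), without overlap. IFIT2 (0.54), IFIT1 (0.33), OASL (0.43) and ISG15 (0.28) were higher too. All 5 were lower in shFoxA1 + WT than in shFoxA1, OASL by -0.26, and OASL with K295A was at 41.3 RPKM against 36.7 in shFoxA1. MSMB, the secreted prostate protein beta-microseminoprotein, was at 2.27, 2.35 and 1.95 RPKM with wild type and 4.46, 3.24 and 4.75 with K295A (0.68 ± 0.115, adjusted p = 0.045). These genes were picked from the called ones after their values were seen. Lower with K295A by 2-fold or more were 3 small RNA genes (0.0247%), none being higher by that much: MIR421, MIR6759 and SNORD5, whose short length makes RPKM rest on few reads.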

How the data were processed

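STAR and hg38 are the aligner and genome build named in the notes (per the submitters' processing notes), and no counter, annotation or strand setting is stated in the labels. The pGIPZ values are RPKM per gene and the pLKO values FPKM per gene, both as deposited by the authors. Neither table gives read totals, so absolute depth is unknown. Of 26475 genes in the RPKM table, 32 without values were left out. Columns of per-sample values not used numbered 0.

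Groups follow the labels. limma 3.58.1 (R 4.3.3, trend on) was fitted to log2(RPKM + 1) of all 12 libraries of the pGIPZ experiment with a term per group, for genes at 1 RPKM or more in 3 of the 6 libraries compared. P-values were two-sided and adjusted by Benjamini-Hochberg over all genes tested, and genes were called at 0.05. Fold changes on this scale understate low genes. The pLKO libraries were fitted in the same way on log2(FPKM + 1). An exact permutation test of 3 against 3 cannot go below 0.1. The code was tested on simulated data.

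The members, gene lists and tests were chosen with earlier results of these data known. Genes named were 16 fixed ones, the 12 highest and 12 lowest called genes (symbol, mean of at least 1 RPKM in either group, no overlap), and up to 4 called genes of each of 21 lists. Other names, those filling out a count or a list and those at the end, were chosen after their values were seen. Some genes that the rule names are not reported here. Gene positions are from GENCODE 29 (GRCh38) and promoters from RefSeq (GRCh38.p14). Alternatives were a pseudocount of 0.1, no filter, a filter over all libraries, median-ratio scaling, a fit on the 2 groups alone, a replicate block and leaving out each library. Tables and figures used Python 3.11.15, pandas 2.3.3, NumPy 2.4.6, SciPy 1.17.1 and matplotlib 3.10.9. Reads of close gene copies and overlapping genes can be divided among them.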

Additional observations from a re-analysis of the deposited data

Results flagged for a closer look

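Among genes chosen by the naming rule and described above, 5 differed between the K295A and the wild-type form in their change against shFoxA1 (limma). Of all 12146 genes, 25 (0.206%) were called between the forms. Some of the 5 were named for their change in shFoxA1 + WT, whose libraries also enter this comparison. Genes picked after their values were seen are not counted in the 5, among them the interferon genes and MSMB above, which were higher with K295A. The fit on the 2 groups alone called none of the genes tested, with 1241 at an unadjusted p under 0.05.

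TMPRSS2 rose less with K295A, at 179, 183 and 179 RPKM against 200.2, 205 and 199 with wild type, a difference of -0.16 on the log2 scale (adjusted p = 0.0073). HES6 was at 583, 603 and 570.0 RPKM with K295A and 661, 673 and 698 with wild type (-0.21, adjusted p = 0.048). TARP was at 23.6, 22.03 and 25.7 and 31.3, 33.4 and 31.2 RPKM (-0.41, adjusted p = 0.023). These genes rose with both forms, and the K295A libraries lay below every wild-type library.

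ACSL3, an acyl-CoA synthetase gene, was at 97.7, 96.4 and 96.6 and 106, 106 and 106 RPKM (-0.13, adjusted p = 0.048), in the same order. GNAI1 was the one of the 5 that was higher with K295A, at 39.95, 43.96 and 40.97 RPKM against 33.6, 33.5 and 33.7 (0.30, adjusted p = 0.027). All 5 differences were smaller than the change of the same gene from shFoxA1 to shFoxA1 + WT. HES6, TARP and GNAI1 were named as being among the 12 highest changes, and ACSL3 for a large change within its list. That choice favoured this order of sizes, and the shFoxA1 + WT libraries entered both comparisons.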

How the results depend on the processing

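The count for shFoxA1 + WT against shFoxA1, 6916 genes, was 6339 to 6410 with 1 library left out, that for shFoxA1 against the control 5507 to 5690, that for shFoxA1 + WT against the control 4936 to 5274 and that for the pLKO knockdown 8059 to 8166. FOXA1 changed by 0.85 to 0.89. The 25 genes called between K295A and wild type became 11 with no filter, 14 with the replicate block, 0 in the fit on the 2 groups alone (1241 at an unadjusted p under 0.05) and 10 to 17 with 1 library left out, the fewest without shFoxA1 + WT replicate 2. It was 15 and 13 without shFoxA1 + WT replicates 1 and 3, and 12 and 15 without K295A replicates 1 and 3. At 2-fold or more, a pseudocount of 0.1 gave 695 genes, 400 of them lower, in place of 405 and 265, the rise being in both directions, and leaving out 1 library gave 410 to 434. Median-ratio scaling turned USP7 from 0.09 to -0.00249, brought HOXB13 past the threshold, and 104 of 108 named genes kept direction and call under it. RPS10 (0.47) was not called with no filter, after scaling, in the 2 groups alone or without any of 4 libraries, and USP7 lost its call in most settings. Polycomb genes that fell numbered 1 to 3 without 1 of 5 libraries. With no filter, liver and gut genes were 7 higher and 3 lower, and 10 genes of steroid metabolism and 5 markers of other cells fell. After scaling, 1 interferon gene and 5 chaperone genes rose, against 3256 of all 12146 genes. Of the histone genes, 1 rose with the replicate block and 1 or 2 without 1 of 3 libraries. The cause of these shifts was not tested. Same-numbered libraries did not deviate together (r of 0.0039, 0.030 and -0.0088). This check cannot show whether they were paired in culture or handling, since pairing need not leave a shared deviation. The replicate block moved no other total by over 1.5 times. Precision depended on level: of genes divided into 4 equal groups by mean RPKM, 41.5% of the lowest group were called and 73.0% of the highest, with median standard errors of 0.1001 and 0.0402.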

Other observations

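Genes outside the lists, chosen after their values were seen, also had large changes. The developmental transcription factor SOX9 was at 2.41, 2.797 and 2.53 RPKM in the control, 21.6, 22.1 and 20.8 in shFoxA1 and 2.59, 2.84 and 2.17 in shFoxA1 + WT (-2.67 ± 0.082, adjusted p = 1.2e-10), so the WT libraries were back near the control. The Iroquois homeobox genes IRX3 (-2.41, from 63.5 to 11.1 RPKM) and IRX5 (-1.79, from 9.34 to 1.99 RPKM) fell too. S1PR3, a receptor for sphingosine 1-phosphate, was at 3.28, 3.25 and 2.798 RPKM in the control, 114 to 118 in shFoxA1 and 19.9, 20.9 and 18.5 in shFoxA1 + WT (-2.50), falling without reaching the control. Other single genes that fell were the laminin subunit gene LAMB3 (-2.45), the protease inhibitor gene SLPI (-1.81), the cornified envelope gene IVL (-1.75) and S100A8, the partner of S100A9 (-1.70). PGC, which encodes pepsinogen C, was at 50.3 RPKM in the control, 19.2 in shFoxA1 and 3.66 in shFoxA1 + WT, downward at both steps (-1.35 and -2.13).

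Among genes that rose, the receptor-modifying protein gene RAMP1 was at 105, 95.1 and 98.7 RPKM in the control, 35.5, 34.6 and 32.2 in shFoxA1 and 162, 149.5 and 159.5 in shFoxA1 + WT (2.17 ± 0.049, adjusted p = 1.0e-11), above the control. The receptor gene TNFRSF19 (2.11), the imprinted genes PEG3 (2.13) and GRB10 (1.87) and the mitochondrial arginase gene ARG2 (1.97) had the same order of groups. RET, a receptor tyrosine kinase gene, was near 0 in the control (0.0471 RPKM) and in shFoxA1 (0.102 RPKM) and at 2.97, 2.62 and 3.31 RPKM in shFoxA1 + WT (1.85). CD274, which encodes the immune checkpoint ligand PD-L1, rose from 1.05, 0.986 and 0.963 to 3.796, 3.12 and 3.79 RPKM (1.19), the control mean being 3.95 RPKM. The long noncoding RNA PCAT1 rose by 1.33 to 18.6 RPKM, where the control had 19.5 RPKM.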
